A study of Mus musculus with 6 samples.

Results

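Chemokines, chemokine receptors and Csf1 were followed across 3 mouse melanoma cell lines as 10 genes chosen by their symbols: the ligand genes Ccl2, Ccl5, Ccl7, Cxcl1, Cxcl12 and Cxcl16, the receptor genes Cxcr4, Cxcr7 and Ccr7, and the growth factor gene Csf1. All 10 were found among the 23951 genes of the expression table, where Cxcr7 is listed under its newer symbol, Ackr3. Polyadenylated RNA of untreated cells was sequenced in 6 libraries, 2 for each line. B16-F1 was obtained from the ATCC and is described as having a low potential to metastasize, B16-F1R2 comes from a metastasis in a lymph node, and B16-F1R2L comes from a lung metastasis that itself stemmed from a lymph node metastasis. They are also called the parental line, the lymph node line and the lung line below, in that order. B16-F1R2 and B16-F1R2L came from another laboratory than B16-F1, so a difference between lines and a difference between sources cannot be told apart, and whether each line is 1 clone is not given in the sources used here. No label states that a line's 2 libraries are from separate cultures, so the tests measure only the spread between these libraries, which may be technical.

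Chemokines are small secreted proteins that bind receptors coupled to G proteins of the Gi class and so direct the migration of leukocytes and of some tumor cells. In melanoma, CXCR4 and CCR7 are known receptors for chemokines of lymph nodes, lungs and lymphatic vessels, and CXCL12 is the ligand of both CXCR4 and CXCR7. CXCR7 is an atypical receptor that removes CXCL12 from its surroundings instead of signaling through G proteins. CCL2, CCL5 and CCL7 recruit monocytes and T cells, CXCL1 recruits neutrophils, CXCL16 is made on the membrane and shed, and CSF1 sustains monocytes and macrophages through its receptor CSF1R.

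Expression is given in FPKM, fragment counts scaled to transcript length and to the mapped reads of the library, so levels of different genes can be set side by side. In these 6 libraries, 3 of the 10 genes (Ccl5, Cxcr7 and Csf1) reached 1 FPKM in at least 2 libraries and were tested, as were 11379 genes in all. The other 7 stayed under 1 FPKM in every library and were under this filter. Of the 7, 3 (Ccl2, Cxcl1 and Cxcl16) were tested where the filter was left out, and 4 (Ccl7, Cxcl12, Cxcr4 and Ccr7) were listed at 0 in all 6 libraries, as were 31.2% of all genes. Ccl5 and Csf1 passed the filter in all 6 libraries, whereas Cxcr7 passed through the 2 B16-F1 libraries only, so its difference between lines was in part set by the filter.

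The promoters of the genes that the results turn on are shown for the genes with an entry in the RefSeq promoter table (build GRCm38.p6), which held 5 of the 10 genes (Cxcl1, Cxcl12, Cxcr4, Cxcr7 and Csf1). Ccl2, Ccl5, Ccl7, Cxcl16 and Ccr7 have no entry in that table. The promoter of Cxcr7, the receptor gene that was low outside B16-F1, and that of Csf1, the tested gene with no difference past the threshold, are set beside that of Cxcl10, the interferon-inducible ligand gene that was high in the same libraries as Ccl5. Each stretch holds the 250 bases before the annotated start, 5′ to 3′ on the strand of the gene, and capitals mark the motifs that were searched for on both strands.
Cxcr7, chr1:90203730-90203979, plus strand: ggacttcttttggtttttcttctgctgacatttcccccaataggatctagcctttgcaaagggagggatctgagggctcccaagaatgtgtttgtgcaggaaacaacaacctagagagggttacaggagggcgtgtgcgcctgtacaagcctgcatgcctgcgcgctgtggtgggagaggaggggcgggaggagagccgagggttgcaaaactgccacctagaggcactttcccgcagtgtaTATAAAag
Csf1, chr3:107760470-107760719, minus strand: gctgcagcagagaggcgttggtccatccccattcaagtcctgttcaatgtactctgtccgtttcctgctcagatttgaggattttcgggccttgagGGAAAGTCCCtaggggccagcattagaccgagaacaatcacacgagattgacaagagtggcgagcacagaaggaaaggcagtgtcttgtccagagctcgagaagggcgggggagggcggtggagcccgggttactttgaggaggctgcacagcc
Cxcl10, chr5:92348890-92349139, minus strand: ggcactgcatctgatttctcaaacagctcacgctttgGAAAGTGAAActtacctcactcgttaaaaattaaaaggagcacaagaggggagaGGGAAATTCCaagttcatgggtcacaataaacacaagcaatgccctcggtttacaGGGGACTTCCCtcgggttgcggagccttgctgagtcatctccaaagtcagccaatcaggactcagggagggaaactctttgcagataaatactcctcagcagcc
In Cxcr7 the capitals mark a TATA box motif (TATAAA) that begins 8 bases before the start. Csf1 holds 1 match to the NF-kB motif, read on the strand opposite to the printed one, between 154 and 145 bases before the start. Cxcl10 holds an interferon-stimulated response element (GAAA, any 2 bases, then GAAA) between 213 and 204 bases before the start, and matches to the NF-kB motif that begin 159, 104 and 103 bases before it. The last 2 of these overlap each other, and the stretch at 103 bases matches the motif on both strands. Of 32851 promoters of the same length, 2.98% held the interferon element, 7.25% the NF-kB motif and 12.4% the TATA box motif. The interferon-gamma activated sequence (TTCNNNGAA), held by 7.02% of promoters, was also searched for and was found in none of the 3. Of the chosen genes whose promoters are not printed, Cxcl1 holds NF-kB matches that begin 71 and 70 bases before the start, though it stayed under 1 FPKM in every library. A match describes letters in this window and was not tested for function.

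The labelled cell type was compared with its defining transcripts. All 7 melanocyte markers (Mitf, Sox10, Pmel, Tyr, Tyrp1, Dct and Mlana) were tested in the 6 libraries and summed to 14970 and 15007 FPKM in B16-F1, 8125 and 7909 FPKM in B16-F1R2 and 8933 and 8924 FPKM in B16-F1R2L. In both derived lines 6 of the 7 were lower than in B16-F1 (limma), as were 27.2% and 27.1% of all genes tested. The seventh, Mitf, did not pass the test in B16-F1R2 (log2 difference -0.15, limma, adjusted p = 0.106) and was higher in the lung line (0.40, limma, adjusted p = 0.00315). Of 8 macrophage and leukocyte markers, Ptprc, Emr1, Itgam and Fcgr1 were listed at 0 in all 6 libraries, and the list summed to between 1.53 and 4.18 FPKM. Lyz2, a lysozyme gene of that list, had 0.170 and 0.625 FPKM in B16-F1, 0.916 and 1.17 FPKM in B16-F1R2 and 2.05 and 1.504 FPKM in B16-F1R2L. It reached 1 FPKM in the derived lines only and was higher in both (log2 differences 1.36 and 2.07, limma, adjusted p = 0.0435 and 0.00918). Cd14 of the same list ran the other way, with 0.334 and 0.345 FPKM in B16-F1 and at most 0.0613 FPKM in the derived lines, and Cd68 ranged from 0.983 to 2.67 FPKM with overlap of the 3 lines (log2 differences 0.02 and 0.32, limma, adjusted p = 0.974 and 0.599). The T and B cell list of 7 summed to 0.0897 and 0.0806 FPKM in B16-F1, 12.8 and 12.5 FPKM in B16-F1R2 and 17.2 and 15.9 FPKM in B16-F1R2L. Nearly all of that came from 1 gene, Cd79a (0 and 0.0593, 12.7 and 12.4, and 17.1 and 15.9 FPKM in the 3 lines), whereas Cd3e and Ms4a1 were listed at 0 in all 6 libraries. Fibroblast markers summed to 0.764 to 0.806 FPKM in B16-F1, 1.20 to 1.33 FPKM in B16-F1R2 and 1.26 to 1.33 FPKM in B16-F1R2L, with Thy1, Lum and Dcn at 0 in all 6. Postn, the tested gene of that list, which passed the filter through 1 library of each derived line, had 0.706 and 0.625 FPKM in B16-F1, 1.14 and 0.964 FPKM in B16-F1R2 and 1.09 and 0.975 FPKM in B16-F1R2L, and was higher in both derived lines (log2 differences 0.59 and 0.57, limma, adjusted p = 0.0383 and 0.0422). Endothelial markers summed to 2.17 to 2.19, 1.86 to 2.07 and 3.02 to 3.19 FPKM, with Cdh5, Kdr, Lyve1 and Tek at 0 in all 6. Pecam1 of that list had 0 FPKM in both B16-F1 libraries, 0.758 and 0.752 FPKM in B16-F1R2 and 1.09 and 1.26 FPKM in B16-F1R2L, so that it passed the filter through the lung line only, and was higher in both derived lines (log2 differences 3.10 and 3.67, limma, adjusted p = 0.000169 and 8.19e-05), whereas Prox1 was lower in both (-0.84 and -0.49, limma, adjusted p = 0.00572 and 0.0430). The part of Cd79a, Lyz2, Cd14, Postn, Pecam1, Prox1 and the melanocyte transcripts in the results for the chemokines was not tested. The libraries held an estimated 12400000 to 14200000 reads.

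**Figure D1:**
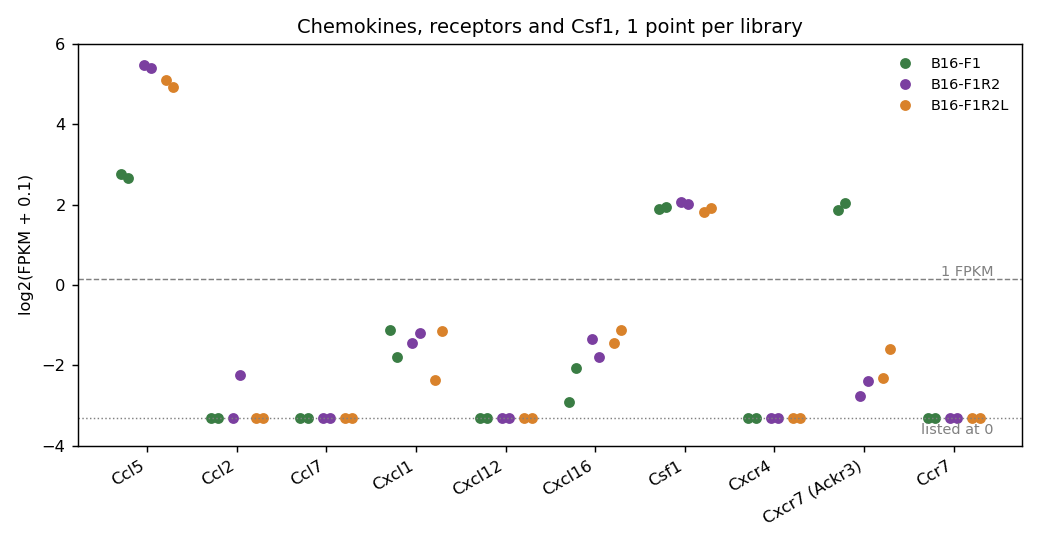
Expression of the 10 genes in every library, as log2(FPKM + 0.1) on the vertical axis, with 1 point per library and a colour for each line. Ccl5 lies higher in the 4 libraries of the derived lines, Cxcr7 lies above the dashed line at 1 FPKM in the 2 B16-F1 libraries only, Csf1 lies at a similar height in all 6, and the points on the dotted line are listed at 0.

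Ccl5, whose product attracts T cells and monocytes, was the most abundant of the 10 genes in each of the 6 libraries and rose in both derived lines. Its level was 6.68 and 6.19 FPKM in the B16-F1 libraries, 44.3 and 42.4 FPKM in the B16-F1R2 libraries and 34.2 and 30.5 FPKM in the B16-F1R2L libraries. The 3 lines did not overlap, and the lung line lay between the other two. Libraries did not overlap for 80.0% of all genes tested between B16-F1R2 and B16-F1, 80.8% between the lung line and B16-F1 and 65.2% between the derived lines. The means were 6.44 ± 0.343, 43.3 ± 1.36 and 32.4 ± 2.64 FPKM (SD, n = 2 libraries each), which is 6.73 times as much in B16-F1R2 and 5.03 times as much in B16-F1R2L as in B16-F1. On the log2(FPKM + 0.1) scale, on which all tests were made and which understates the change of low genes, the difference was 2.73 between B16-F1R2 and B16-F1 (SE 0.074, limma, adjusted p = 2.02e-06). Between B16-F1R2L and B16-F1 it was 2.31 (SE 0.074, limma, adjusted p = 3.09e-06). Ranked by rise among the 11379 genes tested, Ccl5 was at place 374 in B16-F1R2 and at place 489 in B16-F1R2L.

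Between the derived lines, Ccl5 was lower in B16-F1R2L by 0.42 on the log2 scale (log2 difference -0.42, 95% confidence interval -0.60 to -0.24, limma, adjusted p = 0.0141). This smaller difference depended on single libraries: the adjusted p was 0.0854 without B16-F1R2 replicate 1 and 0.0645 without B16-F1R2L replicate 2, with log2 differences of -0.39 and -0.34. The values correspond to an estimated 58 and 51 reads in the parental line, 390 and 398 in the lymph node line and 301 and 289 in the lung line. In order of level among all genes of a library, Ccl5 moved from places 7674 and 7879 in the parental line to 2236 and 2283 in the lymph node line and to 2762 and 3042 in the lung line. The gene lies on the minus strand of chr11:83339280-83344020 (NCBIM37, the assembly of mm9), has 2 transcripts in the annotation, and none of its 483 stretches of 50 transcript bases occurs in another gene.

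The neighbors of Ccl5 on the chromosome were either well above it or near 0. Taf15, the next gene before it and a general RNA-binding factor, had 66.6 and 69.6 FPKM in B16-F1, 77.3 and 78.5 FPKM in B16-F1R2 and 98.3 and 107 FPKM in B16-F1R2L, so it was highest where Ccl5 was intermediate. Ccl9 had at most 0.175 FPKM, and Ccl6, Ccl3 and Ccl4 were listed at 0 in all 6 libraries. Over the 6 libraries, the tested genes with the pattern most like that of Ccl5 were Pcolce, Mal and Fam184b, at distances of 0.223, 0.246 and 0.265 (Euclidean distance between centred log2 values over 6 libraries). Pcolce, a collagen-processing enhancer, had 35.0 and 37.2 FPKM in B16-F1, 215.5 and 210.3 FPKM in B16-F1R2 and 181.5 and 161.3 FPKM in B16-F1R2L.

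The other 5 ligand genes among the 10 were low in every line. Ccl7, a monocyte attractant, and Cxcl12 were listed at 0 in all 6 libraries. Ccl2, the main monocyte attractant, had 0.110 FPKM in B16-F1R2 replicate 2, an estimated 2 reads, and was listed at 0 in the other 5. Cxcl1, a neutrophil attractant, had 0.363 and 0.190 FPKM in B16-F1, 0.264 and 0.339 FPKM in B16-F1R2 and 0.0932 and 0.349 FPKM in B16-F1R2L, and its 3 ranges overlapped. These values correspond to an estimated 1 to 5 reads per library. With no filter on low values, the log2 difference of Cxcl1 from B16-F1 was 0.13 in B16-F1R2 (limma, adjusted p = 0.877) and -0.32 in B16-F1R2L (limma, adjusted p = 0.636).

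Cxcl16, the ligand of CXCR6, had 0.0330 and 0.138 FPKM in B16-F1, 0.291 and 0.188 FPKM in B16-F1R2 and 0.267 and 0.364 FPKM in B16-F1R2L. All 4 libraries of the derived lines were above both B16-F1 libraries, at an estimated 1 and 5, 10 and 7, and 9 and 14 reads. Libraries did not overlap with B16-F1 for 80.0% of all genes tested in B16-F1R2 and 80.8% in B16-F1R2L. Cxcl16 itself was under the filter. With no filter on low values, the log2 difference was 0.91 in B16-F1R2 (limma, adjusted p = 0.0976) and 1.21 in B16-F1R2L (limma, adjusted p = 0.0437) against B16-F1. Exons of Cxcl16 overlap those of Zmynd15 on the opposite strand. The library kit keeps the strand, but whether the authors' quantification used it is not given in the sources used here.

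Beyond the 6 ligand genes chosen, the table held 35 other chemokine ligand genes, and only Cxcl10, Ccl25 and Ccl27a among them reached 1 FPKM in any library. Of all 41 ligand genes, 26 were listed at 0 in all 6 libraries. Cxcl10, an interferon-inducible attractant of activated T cells through CXCR3, was the other ligand gene that passed 10 FPKM. It had 8.01 and 8.37 FPKM in B16-F1, 107 and 113 FPKM in B16-F1R2 and 55.9 and 47.1 FPKM in B16-F1R2L, and the 3 lines did not overlap. Its log2 difference from B16-F1 was 3.73 in B16-F1R2 (SE 0.084, limma, adjusted p = 9.74e-07) and 2.63 in B16-F1R2L (SE 0.084, limma, adjusted p = 3.12e-06). Between the derived lines it was -1.10 (95% confidence interval -1.30 to -0.89, limma, adjusted p = 0.00178), so that Cxcl10, like Ccl5, was lower in the lung line than in the lymph node line.

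Cxcl10 lies next to Cxcl9 and Cxcl11, ligands of the same receptor, and both of these stayed near the floor. Cxcl9 had at most 0.0886 FPKM and Cxcl11 at most 0.0469 FPKM. Exons of Cxcl10 overlap those of Art3, an ADP-ribosyltransferase gene on the opposite strand, which had 3.04 and 3.77 FPKM in B16-F1, 17.4 and 14.0 FPKM in B16-F1R2 and 19.1 and 20.1 FPKM in B16-F1R2L. Art3 was thus highest in B16-F1R2L, where Cxcl10 was intermediate, and its part in the Cxcl10 values was not tested.

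Of the remaining ligand genes, 2 were tested. Ccl25, known as an attractant of thymocytes and intestinal T cells, had 5.60 and 4.95 FPKM in B16-F1, 9.26 and 8.12 FPKM in B16-F1R2 and 6.53 and 5.97 FPKM in B16-F1R2L. It was higher in the lymph node line than in B16-F1 by 0.71 on the log2 scale (limma, adjusted p = 0.00165). Ccl27a, a skin chemokine, had 4.08 and 5.11, 2.84 and 3.06, and 3.60 and 5.06 FPKM in the same order, and was lower in the lymph node line than in B16-F1 (log2 difference -0.61, limma, adjusted p = 0.0284). This call was lost in 5 of 18 alternatives, with an adjusted p (limma) of up to 0.150, among them leaving out B16-F1 replicate 2 or either B16-F1R2 library. Both genes are uncertain in level, since 9.29% of the 50-base stretches of Ccl25 and 43.3% of those of Ccl27a occur in other gene entries of the annotation. Exons of Ccl25 overlap those of another entry with the same symbol on the same strand, so its shared stretches may lie in that entry. Exons of Ccl27a overlap those of Il11ra1 on the opposite strand, whose part in the Ccl27a values was not tested.

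Summed over the 41 ligand genes, chemokine transcripts came to 25.2 and 25.3 FPKM in B16-F1, 164.6 and 167.4 FPKM in B16-F1R2 and 100.9 and 89.6 FPKM in B16-F1R2L. Ccl5 and Cxcl10 together made up 58.3% and 57.6% of the sum in the parental line, 92.0% and 92.6% in the lymph node line and 89.3% and 86.6% in the lung line. The share of Ccl5 alone was 26.5% and 24.5% in the parental line, 26.9% and 25.3% in the lymph node line and 33.9% and 34.0% in the lung line. The share of Cxcl10 was 31.8% and 33.1%, 65.1% and 67.3%, and 55.4% and 52.6% in the same order.

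**Figure D2:**
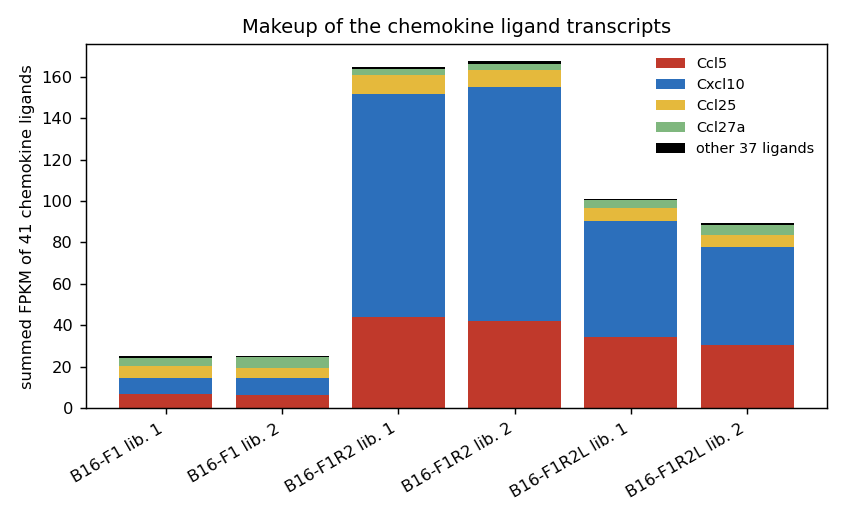
Summed FPKM of the 41 chemokine ligand genes in each library (vertical axis), divided among the 4 ligand genes that reached 1 FPKM in any library and the other 37. The B16-F1R2 bars reach 164.6 and 167.4 FPKM against 25.2 and 25.3 FPKM in B16-F1, and most of each derived-line bar is Ccl5 and Cxcl10.

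Among the receptor genes, Cxcr7 fell in both derived lines. It had 3.57 and 4.002 FPKM in B16-F1, 0.0477 and 0.0924 FPKM in B16-F1R2 and 0.101 and 0.233 FPKM in B16-F1R2L. Both B16-F1 libraries were far above the other 4, and the means were 3.79 ± 0.304, 0.0700 ± 0.0316 and 0.167 ± 0.0933 FPKM (SD, n = 2 libraries each). On the log2(FPKM + 0.1) scale the difference from B16-F1 was -4.53 in B16-F1R2 (SE 0.33, limma, adjusted p = 9.23e-05) and -3.91 in B16-F1R2L (SE 0.33, limma, adjusted p = 0.000168). The size of the fall rests on the value added before taking logs: with 1 FPKM added the differences were -2.16 and -2.04, and with 0.01 FPKM added -5.62 and -4.53. Ranked by fall among the 11379 genes tested, Cxcr7 was at place 38 in the lymph node line and 52 in the lung line.

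Both B16-F1R2L libraries were above both B16-F1R2 libraries in Cxcr7, where libraries did not overlap for 65.2% of all genes tested. The difference between the derived lines did not pass the test (log2 difference 0.62, 95% confidence interval -0.19 to 1.43, limma, adjusted p = 0.222), with an interval wide enough to hold a higher level in B16-F1R2L. At an estimated 143 and 152 reads in the parental line, 2 and 4 in the lymph node line and 4 and 10 in the lung line, the low levels are known only roughly. Cxcr7 lies on the plus strand of chr1:92100555-92113326 (NCBIM37) in 2 exons, and none of its 3016 stretches of 50 transcript bases occurs in another gene. The next gene after it, Cops8, a subunit of the COP9 signalosome, ranged from 48.98 to 60.5 FPKM over the 6 libraries, and Iqca and Asb18, the genes just before it, were listed at 0 in all 6. The genes with the pattern most like that of Cxcr7 were Prelp, Pde8a and Krba1, at Euclidean distances of 0.626, 0.685 and 0.852 over the 6 libraries. Prelp, a proteoglycan of the extracellular matrix, had 1.59 and 1.57 FPKM in B16-F1 and 0.0331 FPKM in B16-F1R2L replicate 2, and was listed at 0 in the other 3.

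**Figure D3:**
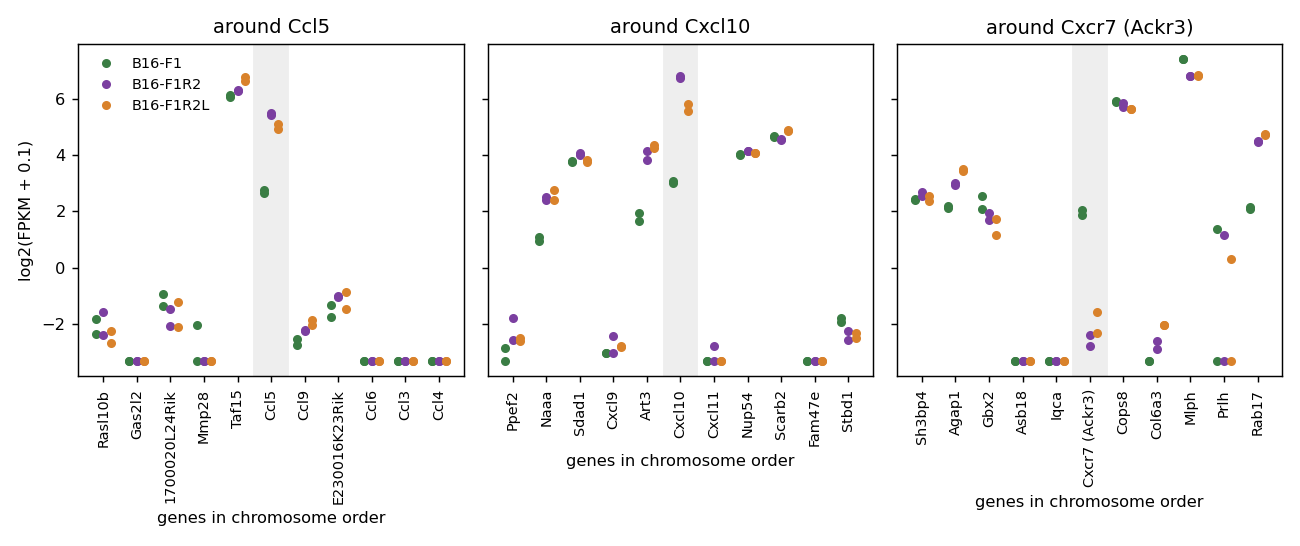
Expression of Ccl5, Cxcl10 and Cxcr7 (grey bands) and of the 5 annotated genes on each side in chromosome order, as log2(FPKM + 0.1) with 1 point per library and a colour for each line. The named gene in each panel separates B16-F1 from both derived lines, some neighbors such as Art3, Naaa and Rab17 do so too, and Taf15 beside Ccl5 and Cops8 beside Cxcr7 lie high in all 6 libraries.

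Cxcr4 and Ccr7, the receptors of CXCL12 and of the lymph node chemokines CCL19 and CCL21, were listed at 0 in all 6 libraries, the line from a lymph node metastasis included. For Cxcr4, 1 read was worth about 0.0416 FPKM and for Ccr7 about 0.0380 FPKM. The ligand genes Cxcl12, Ccl19, Ccl21a, Ccl21b and Ccl21c were likewise listed at 0 in all 6.

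Of the 24 chemokine receptor genes in the table, 12 were listed at 0 in all 6 libraries and 3 reached 1 FPKM in any library: Cxcr7, Cxcr2 and Ccr10. Cxcr2, the receptor of CXCL1, rose, with 0.857 and 1.03 FPKM in B16-F1, 2.25 and 2.14 FPKM in B16-F1R2 and 1.83 and 2.01 FPKM in B16-F1R2L. Its log2 difference from B16-F1 was 1.15 in B16-F1R2 (SE 0.15, limma, adjusted p = 0.00101) and 0.96 in B16-F1R2L (SE 0.15, limma, adjusted p = 0.00218). Under quantile normalization the second of these was 0.30 and no longer past the test (limma, adjusted p = 0.119). Of its 50-base stretches, 1.91% occur in other genes. Ccr10, the receptor of CCL27, ranged from 1.18 to 2.66 FPKM over the 6 libraries and its log2 difference from B16-F1 was 0.19 in B16-F1R2 (95% confidence interval -0.70 to 1.08, limma, adjusted p = 0.687).

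Ccr1 and Ccr3, which bind CCL5, were listed at 0 in all 6 libraries. Cxcr3, which binds CXCL10, had 0.422 and 0.764 FPKM in B16-F1, 0.232 and 0.279 FPKM in B16-F1R2 and 0.119 and 0.160 FPKM in B16-F1R2L. Cxcr3 was thus lower in all 4 libraries of the derived lines than in both B16-F1 libraries. Libraries did not overlap with B16-F1 for 80.0% of all genes tested in B16-F1R2 and 80.8% in B16-F1R2L. Cxcr3 was under the filter. With no filter on low values, its log2 difference from B16-F1 was -0.92 in B16-F1R2 (limma, adjusted p = 0.0597) and -1.49 in B16-F1R2L (limma, adjusted p = 0.0134). Ccr2, which binds CCL2 and CCL7, had at most 0.0557 FPKM, and Cxcr6, which binds CXCL16, at most 0.0830 FPKM.

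Csf1 had 3.64 and 3.71 FPKM in B16-F1, 4.08 and 3.94 FPKM in B16-F1R2 and 3.43 and 3.67 FPKM in B16-F1R2L, with means of 3.68 ± 0.0541, 4.01 ± 0.09997 and 3.55 ± 0.171 FPKM (SD, n = 2 libraries each). The B16-F1R2 libraries were the 2 highest, and those of B16-F1 and B16-F1R2L overlapped. The log2 difference from B16-F1 was 0.12 in B16-F1R2 (95% confidence interval -0.09 to 0.34, limma, adjusted p = 0.287) and -0.05 in B16-F1R2L (95% confidence interval -0.27 to 0.17, limma, adjusted p = 0.659). Between the derived lines it was -0.17 (95% confidence interval -0.39 to 0.04, limma, adjusted p = 0.208). None of the 3 differences passed the test, at an estimated 188 to 232 reads per library. Under quantile normalization they were -0.0423 (limma, adjusted p = 0.707), -0.37 (adjusted p = 0.0133) and -0.33 (adjusted p = 0.0496), so that Csf1 was then called lower in the lung line than in both others. In B16-F1, Csf1 and Cxcr7 overlapped in level, and both were below Ccl5. Csf1 lies on the minus strand of chr3:107543966-107563387 (NCBIM37) and has 7 annotated transcripts in up to 9 exons.

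Il34, the other ligand of CSF1R, rose where Csf1 did not pass the test. It had 0.0533 and 0 FPKM in B16-F1, 2.96 and 3.46 FPKM in B16-F1R2 and 1.94 and 2.16 FPKM in B16-F1R2L, an estimated 1 and 0 reads against 46 to 87. Il34 reached 1 FPKM in the derived lines only, so its differences from B16-F1 were in part set by the filter. On the log2(FPKM + 0.1) scale the difference from B16-F1 was 4.74 in B16-F1R2 (SE 0.26, limma, adjusted p = 2.71e-05) and 4.11 in B16-F1R2L (SE 0.26, limma, adjusted p = 4.48e-05), and the settings tried gave 2.03 to 6.99 and 1.57 to 6.35. In FPKM, Csf1 was 1.38 and 1.14 times as high as Il34 in B16-F1R2 and 1.77 and 1.70 times as high in B16-F1R2L. Exons of Il34 overlap those of Gm15894 and Gm15895 on the opposite strand.

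The shared receptor, Csf1r, had 0 and 0 FPKM in B16-F1, 0.0397 and 0.0562 FPKM in B16-F1R2 and 0.0798 and 0.174 FPKM in B16-F1R2L, under the filter. With no filter on low values, its log2 difference from B16-F1 was 0.56 in B16-F1R2 (limma, adjusted p = 0.121) and 1.15 in B16-F1R2L (limma, adjusted p = 0.0152). Csf2ra, the alpha chain of the receptor for GM-CSF, was the receptor gene of this family that reached 1 FPKM. It fell from 2.95 and 3.22 FPKM in the parental line to 0.355 and 0.554 FPKM in the lymph node line (log2 difference -2.54, limma, adjusted p = 0.000152) and to 1.06 and 1.06 FPKM in the lung line (log2 difference -1.45, limma, adjusted p = 0.00160). Over the alternatives, Csf2ra ranged from -3.50 to -1.49 in the lymph node line and from -2.42 to -0.99 in the lung line. Its partner chain Csf2rb did not pass 0.0155 FPKM, and Csf2, the GM-CSF gene, was listed at 0 in all 6 libraries.

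**Figure D4:**
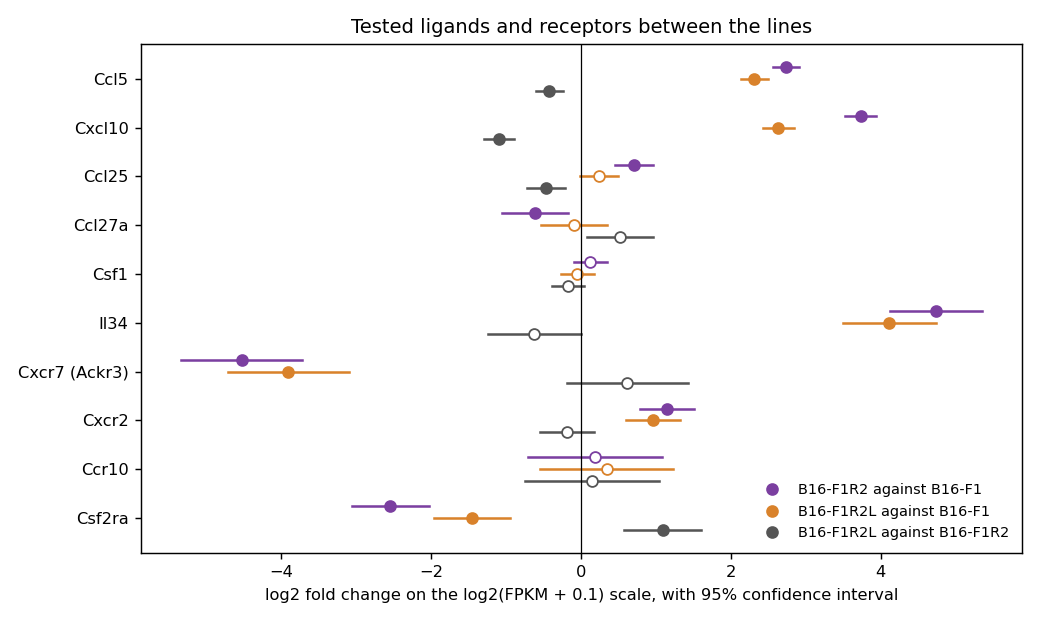
Log2 fold changes from log2(FPKM + 0.1) values (horizontal axis) with 95% confidence intervals for the ligand and receptor genes that were tested, in the 3 comparisons between lines. Filled points passed the adjusted threshold of 0.05 in limma; Ccl5 is at 2.73 and 2.31 against B16-F1, Cxcr7 at -4.53 and -3.91, and Csf1 at 0.12 and -0.05.

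Read as counts over the 3 tested genes among the 10, 1 (Ccl5) was higher and 1 (Cxcr7) lower in the lymph node line than in B16-F1, where 28.2% of the 11379 genes tested were higher and 27.2% lower. The count was also 1 higher (Ccl5) and 1 lower (Cxcr7) in B16-F1R2L against B16-F1, where 29.5% of genes were higher and 27.1% lower. Between B16-F1R2L and B16-F1R2, 1 gene (Ccl5) was lower and 0 were higher, where 10.5% of genes were lower and 12.1% higher. Over all genes tested, 55.4%, 56.7% and 22.6% passed the test in either direction in the 3 comparisons. Rescaling each library to the same sum left B16-F1R2 against B16-F1 at 50.5% higher among the calls (50.9% as deposited). It moved the share from 52.1% to 66.6% in B16-F1R2L against B16-F1 and from 53.7% to 81.0% in B16-F1R2L against B16-F1R2, with a shift of the median gene to 0.12 and 0.13 on the log2 scale. The first 2 comparisons share the B16-F1 libraries, so their matching directions are not independent.

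Of the 23 genes listed for signaling below chemokine receptors, 15 were tested. In B16-F1R2 against B16-F1, 3 were higher, 6 lower and 6 not past the test, where 28.2% of all genes tested were higher and 27.2% lower. The median log2 difference was -0.17 against 0.0046 over all genes. In B16-F1R2L against B16-F1, 3 were higher and 7 lower (29.5% and 27.1% over all genes tested). Rac2, a small GTPase best known from leukocytes, had 0.226 and 0.212 FPKM in B16-F1, 1.19 and 1.38 FPKM in B16-F1R2 and 3.0002 and 3.08 FPKM in B16-F1R2L. It reached 1 FPKM in the derived lines only, so its differences from B16-F1 were in part set by the filter. It was higher in B16-F1R2 by 2.12 and in B16-F1R2L by 3.30 on the log2 scale (limma, adjusted p = 0.000131 and 2.08e-05), with ranges of 0.76 to 2.50 and 1.73 to 3.74 over the alternatives. Arrb1, a beta-arrestin that binds activated receptors, fell from 5.81 and 6.14 FPKM to 3.26 and 2.79 FPKM in B16-F1R2 and 3.02 and 2.96 FPKM in B16-F1R2L (log2 differences -0.96 and -0.97, limma, adjusted p = 0.000500 and 0.000473). Jak2, a kinase of cytokine receptors, was lower in B16-F1R2 (-0.71, limma, adjusted p = 0.00246), and its difference in B16-F1R2L did not pass the test (-0.32, limma, adjusted p = 0.0501). Rgs16, which switches off Gi proteins, was lower in the lung line than in B16-F1 (-0.60, limma, adjusted p = 0.00267) and than in B16-F1R2 (-0.73, limma, adjusted p = 0.00814).

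NF-kB proteins are known activators of Ccl5, Cxcl10, Cxcl1 and Ccl2. Of 18 genes of this pathway and its inflammatory targets, 13 were tested, and in B16-F1R2 against B16-F1 3 were higher, 7 lower and 3 not past the test, with a median log2 difference of -0.39, where 28.2% of all genes tested were higher and 27.2% lower. In B16-F1R2L against B16-F1, 3 were higher and 8 lower (29.5% and 27.1% of all genes), with a median of -0.54 against 0.02 over all genes. The part of these genes in the levels of Ccl5 and Cxcl10 was not tested. Relb had 10.87 and 10.98 FPKM in B16-F1, 3.37 and 3.39 FPKM in B16-F1R2 and 4.70 and 3.999 FPKM in B16-F1R2L (log2 differences from B16-F1 of -1.67 and -1.31, limma, adjusted p = 3.50e-05 and 8.73e-05). Its partner Nfkb2 had 22.4 and 22.4, 11.4 and 11.2, and 11.6 and 10.6 FPKM (-0.98 and -1.01, limma, adjusted p = 4.71e-05 and 4.03e-05). Nfkbie, an inhibitor of NF-kB and itself one of its targets, was lower in both derived lines (log2 differences -1.39 and -0.88, limma, adjusted p = 0.000216 and 0.00148).

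Icam1, an adhesion molecule for leukocytes and a target of NF-kB, rose in both derived lines. It had 0.0690 and 0 FPKM in B16-F1, 2.73 and 3.31 FPKM in B16-F1R2 and 2.02 and 1.96 FPKM in B16-F1R2L, with log2 differences of 4.58 and 4.01 (limma, adjusted p = 4.72e-05 and 7.70e-05) that ranged from 1.96 to 6.75 and from 1.53 to 6.15 over the alternatives. Icam1 reached 1 FPKM in the derived lines only, so these differences were in part set by the filter. The cytokine genes of the list stayed low: Tnf, Il1a and Il6 had at most 0.319, 0.268 and 0.0751 FPKM, and Il1b was listed at 0 in all 6 libraries. Irf1, an interferon-induced transcription factor named here after its values were seen because it is a known activator of Ccl5 and Cxcl10, had 8.00 and 7.39 FPKM in B16-F1, 4.49 and 4.39 FPKM in B16-F1R2 and 4.30 and 5.03 FPKM in B16-F1R2L. It was lower in both derived lines (log2 differences -0.78 and -0.71, limma, adjusted p = 0.000989 and 0.00141).

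The last group holds 11 genes that cut, shed or present chemokines or regulate Cxcr4 and Cxcl12, and all 11 were tested. In B16-F1R2 against B16-F1, 4 were higher, 2 lower and 5 not past the test (28.2% higher and 27.2% lower over all genes tested). In B16-F1R2L against B16-F1, 4 were higher and 3 lower (29.5% and 27.1% over all genes tested). Mmp2, a gelatinase that also cleaves CCL7 and CXCL12, had 1.22 and 1.06 FPKM in B16-F1, 22.9 and 22.8 FPKM in B16-F1R2 and 30.7 and 29.6 FPKM in B16-F1R2L (log2 differences 4.21 and 4.61, limma, adjusted p = 5.20e-07 and 3.62e-07). Dpp4, a peptidase that trims CCL5, CXCL10 and CXCL12, had 0 and 0.0202, 1.32 and 1.11, and 1.27 and 1.91 FPKM (log2 differences 3.58 and 3.92, limma, adjusted p = 0.000129 and 8.77e-05), and its differences ranged from 1.13 to 6.13 and from 1.35 to 6.5 over the alternatives. Sdc4, a heparan sulfate proteoglycan, was higher by 0.85 and 0.86 (limma, adjusted p = 8.27e-05 and 7.70e-05). Ext2, an enzyme that builds heparan sulfate chains, was lower in both derived lines (log2 differences -0.48 and -0.34, limma, adjusted p = 0.000347 and 0.00154). Rac2, Icam1, Il34, Dpp4 and the markers Lyz2, Cd79a, Pecam1 and Postn reached 1 FPKM in the derived lines only, and Cxcr2 there and in 1 of the B16-F1 libraries, so their differences, like that of Cxcr7, were in part set by the filter.

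**Figure D5:**
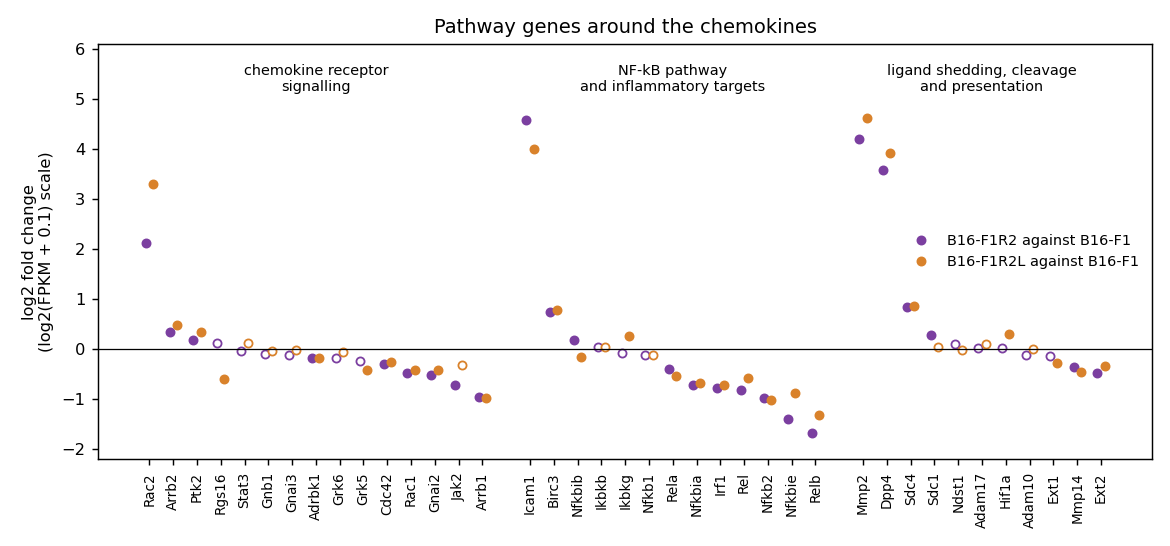
Log2 fold changes from log2(FPKM + 0.1) values (vertical axis) against B16-F1 for the tested genes of 3 lists, ordered within each list by B16-F1R2 against B16-F1. Filled points passed the adjusted threshold of 0.05 in limma; Rac2, Icam1, Mmp2 and Dpp4 stand above 2, and Relb, at -1.67 in B16-F1R2, is the lowest point.

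Of the 46 pathway genes tested in the 6 lists around the chosen genes, 13 passed the test between the lung line and the lymph node line. Against the parental line, 31 passed in the lymph node line and 32 in the lung line. Over all genes tested, 22.6% passed between the derived lines, 55.4% in the lymph node line and 56.7% in the lung line. Of the 13, 8 were higher in B16-F1R2L and 5 lower. Among those already named, Rac2 (1.18), Csf2ra (1.09), Nfkbie (0.51), Mmp2 (0.40) and Relb (0.35) were higher on the log2 scale in B16-F1R2L than in B16-F1R2 (limma, adjusted p = 0.00881, 0.0185, 0.0355, 0.0197 and 0.0455). Cxcl10, Rgs16 and Ccl25 were lower, the last by 0.47 (log2 difference -0.47, limma, adjusted p = 0.0268). The call of Cxcl10 was lost in 0 of 18 alternatives. That of Rgs16 was lost in 1 of 17, where a log2 difference of at least 1 was required. That of Relb was lost in 13 and that of Nfkbie in 10 of 18 alternatives, those of Mmp2 and Ccl25 in 5 of 18, that of Csf2ra in 3 of 17 and that of Rac2 in 2 of 17. Without B16-F1R2 replicate 1 only 2 of the 46 passed between the derived lines, and without B16-F1R2L replicate 2 only 3, where 3.84% and 4.74% of all genes tested passed.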

How the data were processed

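The 6 libraries, 2 for each of 3 lines, were analysed from the gene table of FPKM that the authors deposited. Per the labels and the study's methods, the authors prepared stranded polyadenylated libraries, sequenced single reads of 50 bases, checked them with FastQC 0.10.1 and aligned them with TopHat 2.0.10, Bowtie 1.0.0 and SAMtools 0.1.1.9 to NCBI37/mm9, allowing 2 mismatches and 20 positions per read. DESeq2 served the authors for differential expression, Cuffnorm is named in the submitters' processing notes without its role, and the gene annotation is not given in the sources used here. Reads with several positions can be split among genes, and a gene's 0 may be a failed estimate, so such genes are called listed at 0.

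From these values, genes under 1 FPKM in all libraries or in all but 1 were left out, which kept 11379 of 23951, and 0.1 was added before taking log2. The 3 lines entered 1 linear model over all 6 libraries, with moderated tests by limma 3.58.1 under R 4.3.3 (eBayes, trend on), with Benjamini-Hochberg adjustment over all genes tested and a threshold of 0.05. Two-sided tests were used. An exact permutation test of 2 against 2 libraries cannot go below p = 0.333 and was not used. A count test was not run because FPKM are not counts. In simulated data for B16-F1R2 against B16-F1 over 11379 genes, 195 of 200 genes changed by 2 on the log2 scale were recovered (97.5%), with 8 unchanged genes called. Read numbers, estimated from the FPKM that 1 read is worth in genes with 1 annotated transcript of at least 600 bases, are approximate, and no counting intervals were computed.

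Samples were grouped by the cell line label. The genes and the lists around them were chosen with earlier results of these data known. Within each list, at most the 4 tested genes with the largest differences among those past the threshold were named, besides receptors and ligands that pair with a chosen gene and the 3 genes nearest in pattern. Other genes, including neighbors and Irf1, were named after their values were seen. Positions, exon overlaps and shared 50-base stretches came from the NCBIM37 assembly with its GENCODE vM1 annotation, and promoters from RefSeq GRCm38.p6, a different build from the one of the files. Python 3.11.15, numpy 2.4.6, pandas 2.3.3 and matplotlib 3.10.9 were used. Alternatives were other pseudocounts (1 and 0.01), other filters (none and 5 FPKM), 3 other scalings, no trend, only the 4 libraries compared, a replicate block, a minimum log2 difference of 1, no small RNA genes, and each library left out in turn. Some items are not reported here.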

Additional observations from a re-analysis of the deposited data

How the results depend on the processing

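The limits are 2 libraries per line, a depth that is only estimated, and genes of a few reads. Ccl5 stayed past the threshold against B16-F1 in all 18 alternatives for each derived line, with log2 differences of 2.58 to 2.79 in B16-F1R2 and 2.16 to 2.42 in B16-F1R2L. Cxcr7 did so in all 17 that tested it, with -5.62 to -2.16 and -4.57 to -2.04. With a filter of 5 FPKM it was not tested, so the number of chosen genes lower than in B16-F1 was 0 in both derived lines. With no filter, 2 of the 6 chosen genes then tested were higher in the lung line than in B16-F1, Cxcl16 being the second. Under quantile normalization, 2 were lower in B16-F1R2L than in B16-F1 and 2 lower than in B16-F1R2, the second being Csf1 (log2 differences -0.37 and -0.33, limma, adjusted p = 0.0133 and 0.0496); the cause was not tested.

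The fall of Ccl5 from B16-F1R2 to B16-F1R2L was under a log2 difference of 1, so requiring 1 left 0 chosen genes lower there, and leaving out 1 library gave 0 to 1. The same requirement left 10, 9 and 3 of the 46 pathway genes past the test in the 3 comparisons, where it left 10.1%, 10.7% and 1.23% of all genes. Leaving out 1 library gave 26 to 32 for B16-F1R2 against B16-F1, 27 to 31 for B16-F1R2L against B16-F1, and 2 to 9 between the derived lines.

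Signs turned only in small differences that did not pass the test. Csf1 was at -0.0423 in B16-F1R2 under quantile normalization and at 0.0506 in B16-F1R2L against B16-F1 after rescaling. Rescaling also gave Ccl27a 0.00550 in B16-F1R2L against B16-F1, and Arrb1 0.0944 and Nfkb2 0.0830 between the derived lines. Rgs16 was at -0.0439 in B16-F1R2 under quantile normalization, and Sdc4 at -0.0126 between the derived lines under median ratio scaling. Leaving out 1 library gave Ccl27a -0.334 to 0.144, Arrb1 -0.120 to 0.0966, Nfkb2 -0.0862 to 0.0365 and Sdc4 -0.00150 to 0.0168 in the same comparisons. Over all single-gene values, 1016 kept direction and call, 60 lost the call, 18 gained it and 13 changed sign. Where a minimum log2 difference of 1 was required, a smaller change lost its call whatever its adjusted p. The counts of lost calls given above include this setting.

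Between the derived lines, the number of all genes past the test ranged from 297 to 904 higher and 140 to 991 lower when 1 library was left out, against 1378 and 1190 with all 6. In the same comparison it was 2079 and 489 after rescaling, 874 and 644 with the 4 libraries alone, 923 and 743 with no filter, and 1091 and 650 without a trend. After rescaling, 2043 genes were lower in B16-F1R2L than in B16-F1, against 3086. A minimum log2 difference of 1 left 819 and 328, 957 and 259, and 116 and 24 genes higher and lower in the 3 comparisons.

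Whether libraries with the same replicate number share more than that number is not given in the labels. The correlations of their deviations over 11379 genes were 0.05, -0.10 and 0.08. With the replicate block, Ccl5 and Cxcr7 kept their calls, Relb and Nfkbie lost theirs between the derived lines, and the counts over all genes were 3141 and 3040, 3299 and 3031, and 1217 and 1104 higher and lower.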
